A study of Mus musculus with 6 samples.

Results

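The interleukin-1 (IL-1) family ligands and receptors were followed here as 8 genes, Il1a, Il1b, Il1rn, Il18, Il1r1, Il1rap, Il1r2 and Il1rl1, in dermal fibroblasts given IL-1 itself. They were taken as every non-control probe that the scanner files name for one of these genes, which gave 17 of the 41174 probes on the array, 6 for the ligands and the antagonist and 11 for the receptors. The treated cells were C57BL/6 mouse dermal fibroblasts, cultured in DMEM with serum and antibiotics, that had 20 ng/ml IL-1 for 1, 2 or 4 h, and they were set against the same kind of cells untreated (0 h). The labels give neither the form of IL-1 nor the age of the mice, the passage or the number of cultures. Each of the 6 two-colour arrays held treated RNA of 1 time point and untreated RNA, and each time point had 2 arrays with opposite dye assignment. A time point was therefore counted as 1 sample, and the distance between its arrays was taken as technical.

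IL-1 alpha and IL-1 beta, encoded by Il1a and Il1b, bind the type 1 receptor (Il1r1), which then takes up the accessory protein (Il1rap). The paired intracellular TIR domains recruit Myd88 and IRAK kinases and so activate NF-kB and MAP kinases. The family holds its own brakes: the receptor antagonist (Il1rn) occupies Il1r1 without signalling, and the type 2 receptor (Il1r2) binds IL-1 as a decoy. Il1rl1, also called ST2, is the receptor for IL-33 and shares Il1rap with Il1r1. It is made as a membrane receptor and, from shorter transcripts, as a soluble decoy, and was first known as a growth-induced gene of mouse fibroblasts. Il18 encodes a ligand with its own receptor pair, released after cleavage by caspase-1.

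Values are log2 ratios of IL-1-treated over untreated RNA, in the direction that the dyes in the labels give, as the mean of both dye orientations ± the distance of either orientation from it. Over all kept probes and times the median of that distance was 0.0620 and its 95th percentile was 0.197. A probe was kept if, for any 1 of the 4 conditions, all arrays carrying that RNA read it as well above background. Median mean signals lay between 124.3 and 137.7 in Cy5 and between 121.8 and 127.5 in Cy3, against 68.4 to 74.1 and 96.3 to 104.4 for the 314 negative control spots. All 10 listed fibroblast markers, among them Col1a1, Dcn and Pdgfra, were well above background in the untreated channel of all 6 arrays. Of these Dcn (mean log2 ratio 0.46, limma adjusted p = 0.0297) and Fn1 (0.35, limma adjusted p = 0.00113) rose with IL-1 and Col3a1 fell (-0.25, limma adjusted p = 0.00245). The same held above background for 7 of 8 keratinocyte markers, and of 7 kept ones Krt10 fell (-0.20, limma adjusted p = 0.00380). The summed processed signals of the keratinocyte list were 5757 to 7208 scanner units in untreated RNA, against 1400990 to 2672480 for the fibroblast list. With the brightest kept probe for each gene, 10.8% of all genes rose at a limma adjusted p under 0.05 and 11.1% fell. In RNA of a whole culture, more RNA per cell and more cells that hold it cannot be told apart. The number of arrays limits the precision.

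Of the 17 probes 10 were kept, and they stood for 6 of the 8 genes. The receptors Il1rl1 and Il1r1 and the antagonist Il1rn were higher in IL-1-treated cells at every time, on all 6 arrays, as were 10.4% of all kept probes. No probe of the family reached a log2 ratio of 1, or 2-fold, in both orientations at 1, 2 or 4 h, a size that 0.17%, 0.134% and 0.111% of all kept probes reached. Il18 and the kept probe of Il1a lay between -0.076 and 0.057 in the mean of both orientations at every time, and the probes of Il1b and Il1r2 were not kept. The plot of log2 ratios by array shows each kept probe.

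**Figure D1:**
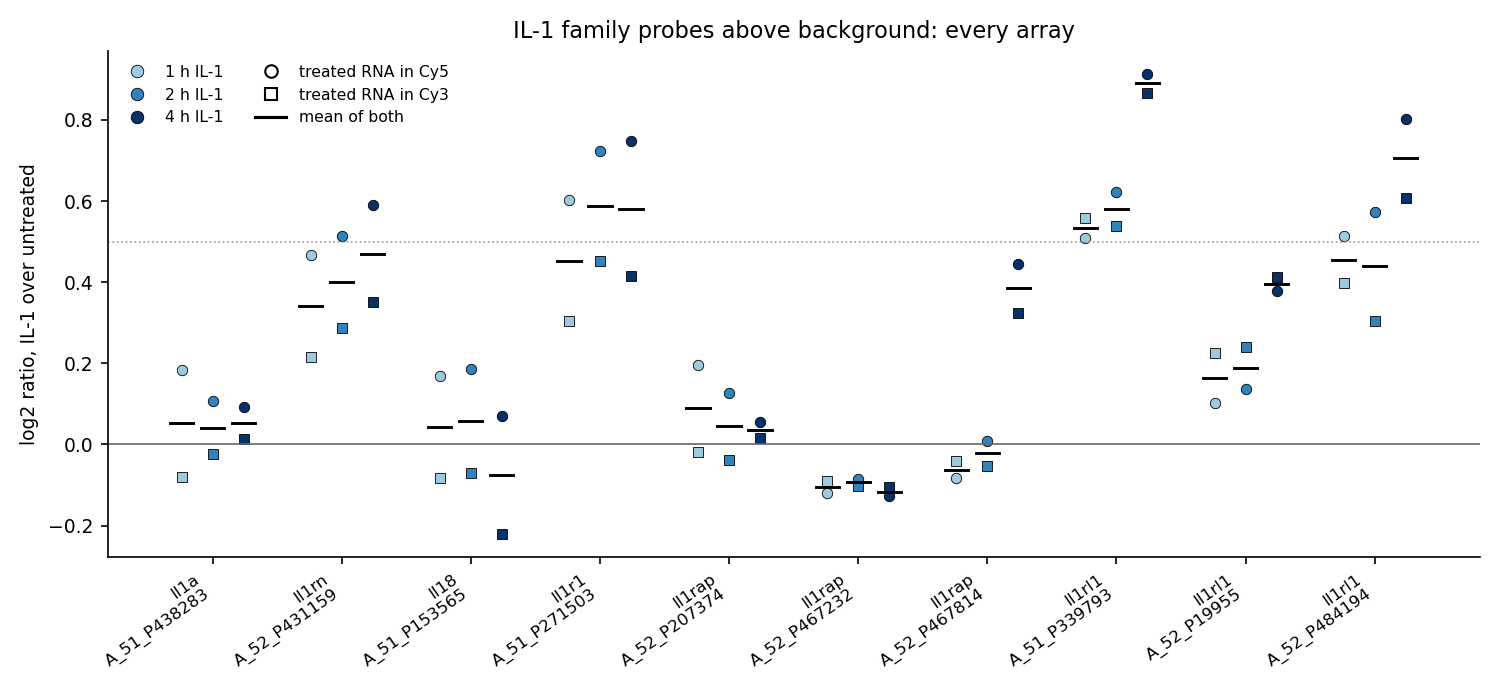
Log2 ratio of IL-1-treated over untreated RNA (y axis) for the 10 kept IL-1 family probes (x axis, gene and probe), with time from light to dark blue, circles for treated RNA in Cy5, squares for treated RNA in Cy3 and bars for the mean of both; the dotted line marks 0.5. All 6 points of Il1rn, Il1r1 and the Il1rl1 probes lie above 0, and the 4 h points are the highest of each Il1rl1 probe.

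Among the ligands, both IL-1 genes were at or near background. The only Il1b probe, A_51_P212782, was well above background on 1 of 6 arrays in the treated channel and on 0 of 6 in the untreated one. Its processed signals, in scanner units, were 75.9 at the lowest, 106.9 at the median and 145.7 at the highest in treated RNA, against 43.1, 61.1 and 88.5 in untreated RNA. The treated value was the larger on all 6 arrays but the ranges overlapped, and Il1b, which encodes the secreted inflammatory form, was not measured above background here. Fitted without the filter, its mean log2 ratio was 0.13 and passed (limma adjusted p = 0.0366), as did a rise for 7.35% of all probes in that fit.

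Il1a, whose product also acts inside the cell and as a membrane-bound signal, had 2 probes. The kept one, A_51_P438283, passed through the treated channel alone and was well above background on 5 of 6 treated and 4 of 6 untreated channels. Its log2 ratio was 0.052 ± 0.13 at 1 h, 0.041 ± 0.066 at 2 h and 0.053 ± 0.040 at 4 h, with orientations of opposite sign at 1 and 2 h, and its mean response was not past the threshold (0.049 ± 0.022, SE, n = 3, limma adjusted p = 0.179). The second, A_52_P100926, was well above background on 2 of 6 treated channels and 1 of 6 untreated channels and was not kept. With the scanner's processed signals the mean of the kept probe was 0.31 and passed (limma adjusted p = 0.0460), with signals of only 130.7 to 269.6 in treated and 86.6 to 247.1 in untreated RNA.

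Il18 was measured above background and did not pass the test. Its probe A_51_P153565 was well above background on all 6 arrays in both channels, with processed signals of 469.4, 579.2 and 657.8 (lowest, median, highest) in treated RNA and 480.4, 559.8 and 642.2 in untreated RNA. The ranges covered each other almost fully. The log2 ratio was 0.044 ± 0.13 at 1 h, 0.057 ± 0.13 at 2 h and -0.076 ± 0.14 at 4 h. The 2 dye orientations had opposite signs at each time, and the mean response was 0.0084 ± 0.033 (SE, n = 3, limma adjusted p = 0.891).

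Il1rn, the antagonist, rose. Its kept probe A_52_P431159 gave 0.47, 0.51 and 0.59 at 1, 2 and 4 h with treated RNA in Cy5, and 0.22, 0.29 and 0.35 with it in Cy3. Every array was above 0, and within each orientation the values increased from 1 to 4 h by 0.12 to 0.13. The mean response was 0.40 ± 0.030 (SE, n = 3, limma adjusted p = 0.00107), 1.32-fold, and stood at place 257 from the top among 30580 kept probes. Processed signals were 604.6, 755.5 and 1012 in treated RNA, against 353.3, 448.7 and 569.8 in untreated RNA (lowest, median, highest), and the ranges did not overlap. This probe is dim, and its ratio differed with the processing. With an offset of 16 in place of the 50 added to both channels its mean log2 ratio was 0.58, and with no background correction it was 0.31. The part of the offset was not tested. With the scanner's processed signals the log2 ratio was 0.69, 0.76 and 0.88 at 1, 2 and 4 h. The other Il1rn probe, A_51_P307166, was well above background on 2 of 6 treated channels and 1 of 6 untreated channels, so the rise of Il1rn rests on 1 probe.

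In the coordinates of the scanner files, for which no genome build is stated, the kept Il1rn probe lies at chr2:24282768-24282827 and the dim one spans chr2:24279678-24280698, a stretch of 1021 bases. The RefSeq table (GRCm38.p6) lists 3 start sites for Il1rn, which is known to make a secreted and an intracellular antagonist from separate starts. The window of the first, chr2:24336610-24336909 on the plus strand, is shown because it holds the AP-1 type motif TGANTCA (in capitals, first base 141 bases before the start).
Il1rn, first start: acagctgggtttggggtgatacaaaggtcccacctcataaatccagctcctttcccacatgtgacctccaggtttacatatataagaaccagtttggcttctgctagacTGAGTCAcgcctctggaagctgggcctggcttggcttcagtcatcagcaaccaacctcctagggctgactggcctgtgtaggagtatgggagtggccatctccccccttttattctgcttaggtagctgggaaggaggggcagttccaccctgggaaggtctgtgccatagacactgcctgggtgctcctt

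Il1r1, the signalling receptor, was 1.45-fold higher in the mean of the 3 times. Its single probe A_51_P271503 (chr1:40611290-40611349 in the files' coordinates) gave 0.60, 0.72 and 0.75 at 1, 2 and 4 h with treated RNA in Cy5, and 0.30, 0.45 and 0.41 with it in Cy3. Treated RNA in Cy5 gave the higher value at each time. The means were 0.45 ± 0.15 at 1 h, 0.59 ± 0.14 at 2 h and 0.58 ± 0.17 at 4 h. Within each orientation the value was higher at 4 h than at 1 h, by 0.14 with treated RNA in Cy5 and by 0.11 with it in Cy3, and the slope did not pass (0.064, limma adjusted p = 0.564). The mean response was 0.54 ± 0.033 (SE, n = 3, limma adjusted p = 0.000604), at place 141 from the top.

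The processed signals of Il1r1 were 8516, 10852 and 13255 in treated RNA and 6598, 7116 and 7773 in untreated RNA (lowest, median, highest), so every treated value lay above every untreated one. Such a separation of all 6 treated from all 6 untreated signals was seen for 3 of the 10 kept family probes (Il1rn, Il1r1 and 1 of Il1rl1) and for 1.3% of all kept probes; the opposite separation was seen for 0 of them and for 0.824% of all. The plot of processed signals shows the arrays one by one.

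**Figure D2:**
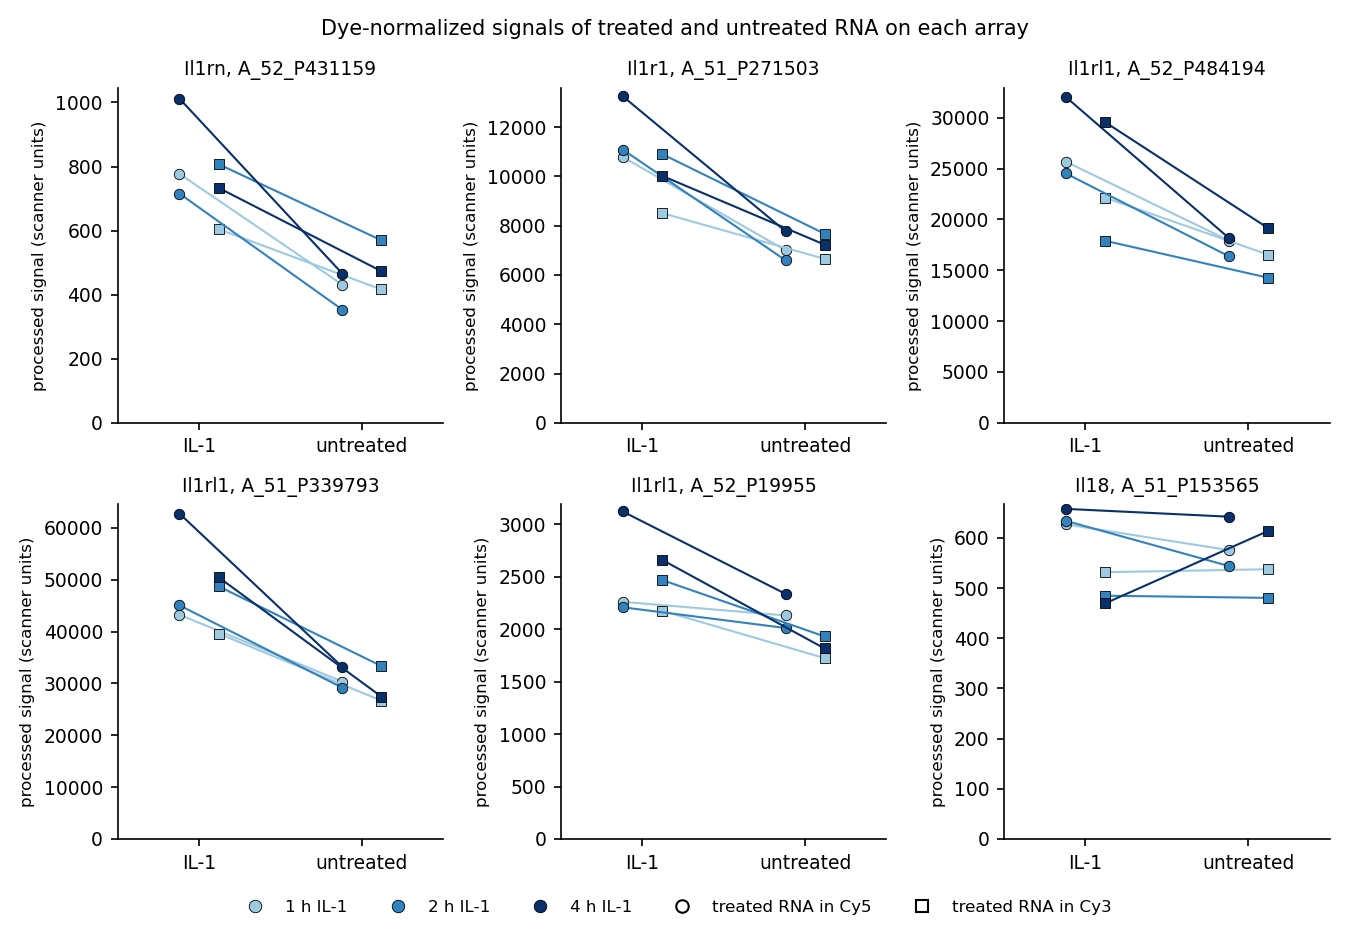
Dye-normalized processed signal (y axis, scanner units, from 0) of IL-1-treated and untreated RNA for 6 probes, with a line for each array, time from light to dark blue, circles for treated RNA in Cy5 and squares for treated RNA in Cy3. Lines slope down from treated to untreated on all 6 arrays for the Il1rn, Il1r1 and Il1rl1 probes and in both directions for Il18, whose treated signal was the brighter on 4 of 6 arrays.

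RefSeq lists 2 start sites for Il1r1, at chr1:40224830-40225129 and chr1:40266336-40266635 (windows from 250 bases before to 50 after the start, plus strand, GRCm38.p6). Neither window held any of the 3 motifs searched on both strands, the NF-kB consensus, the shorter NF-kB type site GGANTTTCC or TGANTCA. They are shown because Il1r1 and Il1rl1 are near neighbours on chromosome 1 and rose together.
Il1r1, first start: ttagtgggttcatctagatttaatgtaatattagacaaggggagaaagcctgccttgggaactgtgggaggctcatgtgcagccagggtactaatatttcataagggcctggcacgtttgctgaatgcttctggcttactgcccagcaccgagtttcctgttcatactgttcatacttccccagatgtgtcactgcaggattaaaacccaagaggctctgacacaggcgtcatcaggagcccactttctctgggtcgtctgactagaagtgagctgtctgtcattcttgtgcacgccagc
Il1r1, second start: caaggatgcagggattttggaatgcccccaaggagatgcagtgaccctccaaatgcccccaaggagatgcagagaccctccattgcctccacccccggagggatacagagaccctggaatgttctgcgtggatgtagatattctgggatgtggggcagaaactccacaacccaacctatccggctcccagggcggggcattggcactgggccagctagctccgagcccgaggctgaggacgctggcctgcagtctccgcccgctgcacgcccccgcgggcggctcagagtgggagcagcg

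Il1rl1 rose on all of its 3 probes, by unequal amounts. Its brightest probe had the highest mean response of the family, above Il1r1 and Il1rn, but with the scanner's processed signals Il1rn stood at 0.78 against 0.68 for this probe, and without replicate 2 Il1r1 stood at 0.69 against 0.68. The probe A_51_P339793, which the files assign to transcript variant 2 (NM_010743, known as the soluble form), gave 0.51, 0.62 and 0.91 at 1, 2 and 4 h with treated RNA in Cy5, and 0.56, 0.54 and 0.87 with it in Cy3. Its means were 0.53 ± 0.024, 0.58 ± 0.042 and 0.89 ± 0.024, or 1.45-fold at 1 h and 1.85-fold at 4 h. From 1 h to 4 h it increased by 0.40 with treated RNA in Cy5 and by 0.31 with it in Cy3. The mean response was 0.67 ± 0.067 (SE, n = 3, limma adjusted p = 0.00216), at place 85 from the top of 30580 probes. Processed signals were 39630, 46910 and 62786 in treated RNA and 26695, 29772 and 33360 in untreated RNA (lowest, median, highest), with no overlap and no saturated spot.

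The probe assigned to the membrane form rose as well. The probe A_52_P484194, assigned to transcript variant 1 (NM_001025602, known as the long form with the TIR domain), gave 0.51, 0.57 and 0.80 over these times with treated RNA in Cy5, and 0.40, 0.30 and 0.61 with it in Cy3. Its mean response was 0.53 ± 0.053 (SE, n = 3, limma adjusted p = 0.00217), or 1.45-fold. Processed signals were 17906, 25101 and 32041 in treated RNA and 14273, 17239 and 19164 in untreated RNA, and these ranges overlapped, although treated RNA was the brighter on each of the 6 arrays. The log2 ratio of the long form's probe was lower than that of the soluble form's on 5 of 6 arrays, by a median of 0.14 (a difference of -0.14, range -0.26 to 0.0042). This difference was not tested.

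The third probe, A_52_P19955, is also assigned to variant 2 but lies upstream of both others, at chr1:40736381-40737243 in the files' coordinates, where it spans 863 bases. The probe of the soluble form is at chr1:40743966-40744025 and that of the long form, the most distal, at chr1:40761200-40761259. The upstream probe gave the smallest ratios, 0.16 ± 0.063, 0.19 ± 0.052 and 0.40 ± 0.017 at 1, 2 and 4 h, with a mean of 0.25 ± 0.047 (SE, n = 3, limma adjusted p = 0.0141). On all 6 arrays it lay below the probe of the long form. Its call was lost with the scanner's processed signals (mean 0.31, limma adjusted p = 0.0746) and without the 2 h sample (mean 0.28, limma adjusted p = 0.0551).

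RefSeq (GRCm38.p6) gives 2 start sites for Il1rl1 on the plus strand of chromosome 1, and the known distal and proximal promoters of this gene are used by different cell types. The windows are shown because a motif differed between them. That of the downstream start, chr1:40439379-40439678, held 1 match to GGANTTTCC (in capitals, first base at position 8 after the start), and that of the upstream start, chr1:40429320-40429619, held none of the 3 motifs. GGANTTTCC was present in 1.25% of all 32851 promoter windows, TGANTCA in 7.81% and the NF-kB consensus in 5.8%. Of the 12 windows of the 8 family genes, 1 held GGANTTTCC, 2 held TGANTCA (Il1rn and Il1a) and 0 held the NF-kB consensus. A match of letters shows no binding.
Il1rl1, upstream start: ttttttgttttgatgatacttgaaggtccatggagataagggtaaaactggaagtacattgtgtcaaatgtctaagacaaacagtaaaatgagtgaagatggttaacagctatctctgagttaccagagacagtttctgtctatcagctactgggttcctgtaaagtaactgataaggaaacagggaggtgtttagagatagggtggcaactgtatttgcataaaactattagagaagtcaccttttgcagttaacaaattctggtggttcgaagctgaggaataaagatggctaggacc
Il1rl1, downstream start: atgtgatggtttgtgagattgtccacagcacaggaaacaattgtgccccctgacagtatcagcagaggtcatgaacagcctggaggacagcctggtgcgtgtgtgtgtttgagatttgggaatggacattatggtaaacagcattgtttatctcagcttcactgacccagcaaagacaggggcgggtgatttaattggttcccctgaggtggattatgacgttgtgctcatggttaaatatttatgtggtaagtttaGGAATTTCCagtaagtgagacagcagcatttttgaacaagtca

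Mast cells and innate lymphoid cells are known for high ST2, so their markers are given beside this result. Of 8 mast cell markers 7 were kept, and 0 passed the limma test in either direction, with mean log2 ratios from -0.017 (Fcer1a) to 0.033 (Cma1). The summed processed signal of the list was 2218 to 2912 in treated RNA and 2354 to 2972 in untreated RNA, and Tpsab1 was well above background on 0 of 6 treated and 2 of 6 untreated channels. Of the T cell and innate lymphoid markers 6 of 8 were kept and 0 passed, with sums of 4390 to 6760 in treated RNA and 4196 to 6505 in untreated RNA; Lck was well above background on 0 of 6 arrays in both channels. Their mean log2 ratios ran from 0.021 (Cd4) to 0.22 (Gata3). Gata3, a transcription factor gene of type 2 lymphoid cells that other cells also express, was at 0.53 ± 0.11 at 1 h, 0.13 ± 0.074 at 2 h and -0.012 ± 0.065 at 4 h. Among 6 kept macrophage markers, Csf1r (0.13) and Lyz2 (0.086, mean log2 signal 11.7) rose, while Cd163 was well above background on 0 of 6 arrays in both channels. Most markers of these lists were well above background in the untreated channel of all 6 arrays. They were 6 of 8 for mast cells, 5 of 8 for T cells and innate lymphoid cells and 6 of 8 for macrophages. The macrophage sums were 31419 to 38393 in treated RNA and 29230 to 37627 in untreated RNA. The part of such cells in these results was not tested.

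Il1rap, the shared co-receptor, had 5 probes whose values differed. The probe of transcript variant 2 (NM_134103), A_52_P467232, was lower in treated RNA on all 6 arrays, as were 10.1% of all kept probes, at -0.11 ± 0.014, -0.094 ± 0.0084 and -0.12 ± 0.011 at 1, 2 and 4 h. Its mean response of -0.11 ± 0.022 (SE, n = 3, limma adjusted p = 0.0212), a fold of 0.930, passed the threshold. The call was lost without any 1 of the 3 time points (limma adjusted p from 0.0533 to 0.119) and with the scanner's processed signals (-0.17, limma adjusted p = 0.0571). A fall of this kind passed for 11.4% of all kept probes. Processed signals were 860.6, 971.0 and 1060 in treated RNA and 968.3, 1076 and 1242 in untreated RNA, with overlapping ranges.

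A second Il1rap probe was near 0 at 1 and 2 h and higher at 4 h. A_52_P467814, which the files assign to the cDNA AK045686, gave -0.062 ± 0.020 at 1 h and -0.022 ± 0.031 at 2 h but 0.38 ± 0.061 at 4 h, with 0.45 and 0.32 in the 2 orientations, or 1.31-fold. From 1 h to 4 h it increased by 0.53 with treated RNA in Cy5 and by 0.37 with it in Cy3. Its slope was 0.22 per time doubling (limma adjusted p = 0.162), and its mean response did not pass (0.10 ± 0.083, SE, n = 3, limma adjusted p = 0.456). The slope passed with no background correction (limma adjusted p just under 0.05) and with each array centred on its median (limma adjusted p = 0.000171).

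The other Il1rap probes did not pass. A_52_P207374 (AK033972) had a mean of 0.056 ± 0.024 (SE, n = 3, limma adjusted p = 0.155). A_52_P153592 (AK032620) and A_51_P136742, the probe of transcript variant 1 (NM_008364, the full-length co-receptor), were not kept. The variant 1 probe was well above background on 1 of 6 treated and 3 of 6 untreated channels. In the files' coordinates the variant 2 probe lies at chr16:25487772-25487831, upstream of the variant 1 probe at chr16:25502406-25502464 and of the probe that was higher at 4 h, at chr16:25503463-25503522.

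Il1r2, the decoy receptor, was near background. Its probe A_52_P417890 was well above background on 2 of 6 treated and 5 of 6 untreated channels, and A_51_P470079 on 3 of 6 treated and 2 of 6 untreated channels. Their processed signals ran from 66.3 to 189.1 in treated RNA and from 74.0 to 177.1 in untreated RNA, and neither was kept. The log2 ratios of single arrays lay between -0.23 and 0.25 with both signs.

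The mean responses were tested over all 30580 kept probes with limma. Of the 17 family probes 10 were kept and tested. Past an adjusted p of 0.05, 5 of these 10 rose (Il1rn, Il1r1 and the 3 of Il1rl1) and 1 fell (Il1rap), where 10.5% of all kept probes rose and 11.4% fell. The 5 probes had each passed the background filter through the untreated channel as well as the treated one. Passing is thus common in this test, which holds no spread between untreated cultures, and a share near it is no result about the family. A rise of at least 0.5 that also passed was found for 0.553% of all kept probes and for 3 family probes, those of Il1r1 and the 2 brighter ones of Il1rl1. At 1 h 0.5% of kept probes were at least 0.5 in both orientations, at 2 h 0.52% and at 4 h 0.435%. The soluble-form probe of Il1rl1 was among them at all 3 times and the long-form probe at 4 h. No family probe was lower by at least 0.5 in both orientations, a size that 0.0491%, 0.0948% and 0.0916% of kept probes reached at 1, 2 and 4 h. The plot of mean response against signal sets these values among all probes of like brightness.

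**Figure D3:**
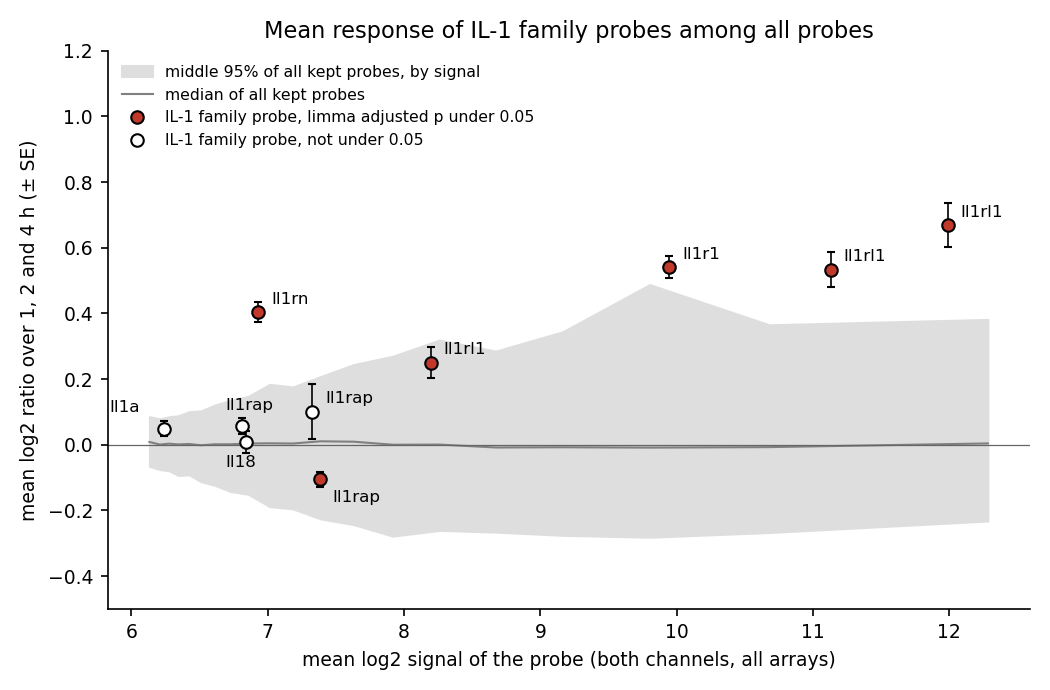
Mean log2 ratio of treated over untreated RNA across 1, 2 and 4 h (y axis, ± SE over 3 time points) against the mean log2 signal of the probe (x axis) for the 10 kept family probes, filled where limma's adjusted p was under 0.05, over the middle 95% (grey band) and the median (line) of all 30580 kept probes in 20 bins of signal. Il1rn, Il1r1 and the 2 brighter Il1rl1 probes lie above the band, and the third Il1rl1 probe and the Il1rap probes lie inside it.

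Change over time among the treated samples was tested as a slope against log2 hours, so that it reads per time doubling. By limma 0 family probes had a rising slope past the adjusted threshold and 0 a falling one, where 0.196% and 0.242% of kept probes did. An unadjusted limma p under 0.05 was found for 4 of the 10 family probes and for 3171 of all 30580 kept probes. These 4 were the probes of Il1rl1, with slopes of 0.18 (soluble form), 0.12 (long form) and 0.12 (upstream probe), and the Il1rap probe of AK045686. The adjusted p of the soluble-form slope was 0.175. It passed with no background correction (limma adjusted p = 0.0295) and with median centring (limma adjusted p = 0.00461), and over all 12 alternatives its slope lay between 0.15 and 0.20.

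By distance over the 6 array ratios, the 5 named genes closest to the soluble-form probe of Il1rl1 among 17613 searched were Cep43, Sqstm1, Hmox1, Ndrg1 and Ifngr2. Sqstm1, which encodes the autophagy receptor p62, was at 0.59, 0.72 and 0.79 at 1, 2 and 4 h, and the heme oxygenase gene Hmox1 at 0.33, 0.55 and 0.82. Among the genes closest to the long-form probe were the NF-kB inhibitor gene Nfkbib (0.50, 0.52 and 0.55 at the same times), Gch1, 9430080K19Rik and Il1r1. All of these ratios share the untreated RNA and the arrays.

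Other genes of the family and pathway were taken from fixed lists, with the brightest kept probe standing for a gene; 10.8% of all 22210 genes so represented rose and 11.1% fell. Of 7 other family receptors and binding proteins 6 were kept and 1 rose, Il1rl2, the IL-36 receptor, at 0.30, 0.44 and 0.49 at 1, 2 and 4 h (mean 0.41, limma adjusted p = 0.00196). A second, dim Il1rl2 probe was at 0.067 in the mean (limma adjusted p = 0.117). The IL-18 binding protein gene Il18bp (0.038), the inhibitory receptor gene Sigirr (0.025) and the IL-18 receptor subunit gene Il18rap (0.029) did not pass, and Il18r1 was not kept. In the RefSeq order of the receptor cluster on chromosome 1 the 6 genes are Il1r2, Il1r1, Il1rl2, Il1rl1, Il18r1 and Il18rap. The adjacent Il1r1, Il1rl2 and Il1rl1 rose, Il1r2 and Il18r1 on either side were not above the filter, and Il18rap at the far end did not pass.

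Of 6 other family ligands 5 were kept and 0 passed by limma in either direction, with Il33, the ligand of ST2, at 0.012 (limma adjusted p = 0.798). Among 8 kept genes of IL-1 maturation and release, 2 rose and 1 fell. The inflammatory caspase gene Casp4 stood at 0.58 at 1 h and 1.00 at 2 h, and higher again at 4 h (mean 0.93, limma adjusted p = 0.00295), and the pore-forming gasdermin gene Gsdmd averaged 0.30 (limma adjusted p = 0.00302). S100a13, which takes part in the export of IL-1 alpha, averaged -0.18 (limma adjusted p = 0.00439). Casp1, which cleaves the precursors of IL-1 beta and IL-18, was at 0.017 and did not pass. Of 17 genes of receptor-proximal signalling 2 rose, the adaptor gene Myd88 (0.24) and Tollip (0.18), a negative regulator, and 2 fell, Ube2n (-0.21) and Ecsit (-0.15). Irak3, which encodes an inhibitory kinase of the family, was at 0.083 (limma adjusted p = 0.0549), and the kinase gene Irak2 was at -0.16 (limma adjusted p = 0.0509). The list medians of the mean response were 0.027 for the receptors and binding proteins, 0.010 for the ligands, 0.030 for maturation and -0.0012 for proximal signalling, against 0.0021 over all kept probes. The plot of the pathway lists shows every kept gene.

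**Figure D4:**
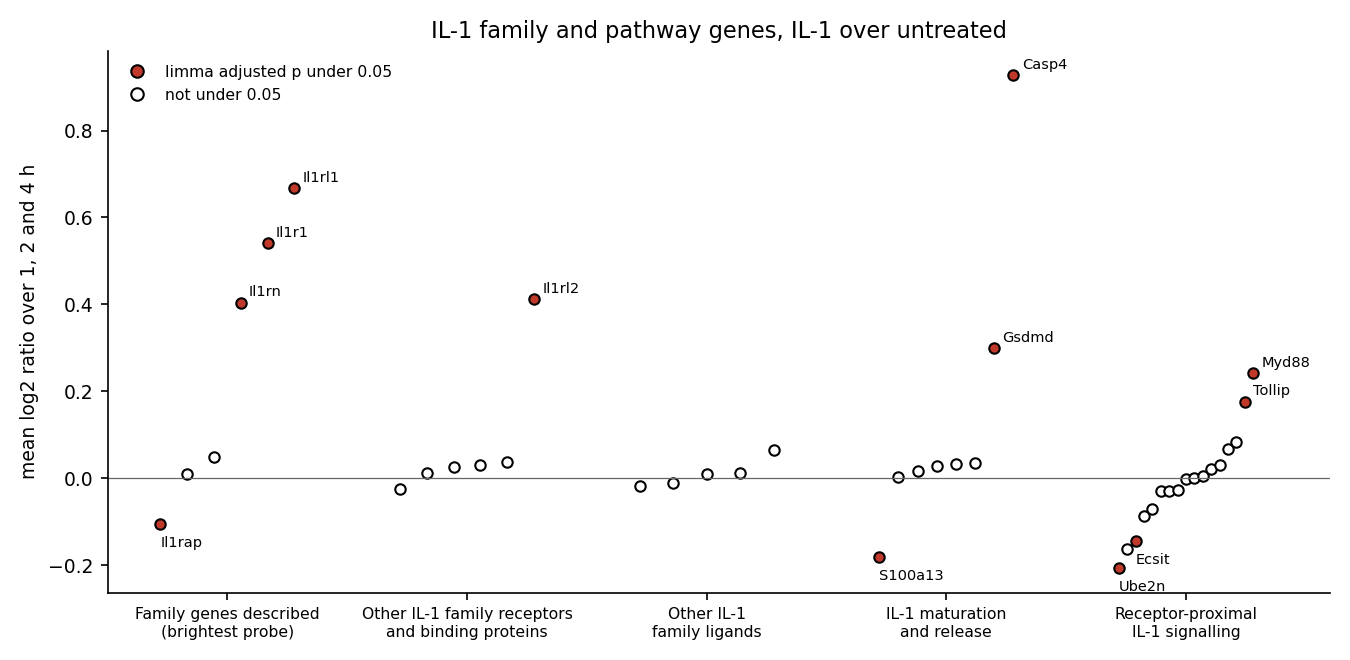
Mean log2 ratio of treated over untreated RNA across 1, 2 and 4 h (y axis) for the brightest kept probe of each gene, in the described family genes and 4 further lists (x axis), filled and named where limma's adjusted p was under 0.05. Casp4 is the highest at 0.93, followed by Il1rl1 at 0.67 and Il1r1 at 0.54, and most genes of the ligand and signalling lists lie near 0.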

How the data were processed

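RNA of dermal fibroblasts with IL-1 for 1, 2 or 4 h was compared with untreated RNA on 6 Agilent two-colour arrays. Per the file headers, Agilent Feature Extraction 7.5.1 read the spots; the deposited mean and local background intensity columns precede correction, and the processed intensity columns follow background subtraction, spatial detrending and linear and lowess dye normalization. The authors' deposited value table is in log2 ratios. Each column equals that of the other array of its time point for 100% of spots (tolerance 0.001), so columns are swapped within pairs, which leaves pair means as they were. The sign follows the labelled dyes. If the scanner files were the exchanged source, every sign would turn. In the labelled direction Nfkbia, an IL-1-induced gene, stood at 3.02 at 1 h.

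Mean signals were corrected by normexp (offset 50) and loess in limma 3.58.1 (R 4.3.3), with control spots at weight 0 in loess. Spots that were controls or flagged as outliers did not enter the tests. The filter passed 30637 of 41174 probes, and 57 with missing values were dropped. Other genes were named through RefSeq accessions (18712 kept probes) or the files (11868). The mean of 3 time points was tested against 0 (2 residual degrees of freedom) and the slope on log2 hours (1 residual degree of freedom), two-sided, with lmFit and eBayes, Benjamini-Hochberg adjusted over all kept probes. No label says that time points came from separate cultures, so p-values measure only the spread between these samples. Replicate numbers mark dye orientation, and deviations of same-numbered arrays correlated at 0.765 to 0.843 across probes. The fits were run on simulated data with known changes before use. All probes of the 8 genes are described; genes of the lists are named where they passed (up to 5 a list) or belong to the best known of the family, and Nfkbia, Il18rap, Irak2, Gata3 and other marker genes besides. Members and lists were chosen with earlier results of these data known. Protein sequences and probe sequences were not used here. Promoter sequences are from RefSeq. One gene near the long-form Il1rl1 probe is not reported here.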

Additional observations from a re-analysis of the deposited data

How the results depend on the processing

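The rises of Il1rn, Il1r1 and the 2 brighter Il1rl1 probes passed the limma threshold under every alternative that kept the probe. Their mean log2 ratios ranged from 0.28 to 0.78 for Il1rn, 0.39 to 0.69 for Il1r1, 0.51 to 0.74 for the soluble-form probe and 0.38 to 0.63 for the long-form probe. No called value changed sign, and 0 probes were 2-fold higher at any time under any alternative run. The number of probes that rose was 5, or 3 with the brightest probe per gene, which tests 6 family probes. It was 6 of 17 with no filter on dim probes, where Il1b also passed and 7.35% of all 41097 probes rose. It was 4 to 8 on leaving out a dye orientation or a time point. The 4 were found without the 2 h sample, where the upstream Il1rl1 probe did not pass. The 8 were found without replicate 2, where Il1a, Il18 and an Il1rap probe also passed. The number that fell was 1, or 0 from the scanner's processed signals, 0 from the deposited value table, and 0 to 1 on leaving out an orientation or a time point. Rising slopes were 0, or 2 with no background correction and 2 with median centring. The fit of 6 arrays with dye orientation as a replicate block gave 5 up and 1 down and changed no call. Over all kept probes 3216 rose and 3472 fell by limma, against 1033 and 933 from processed signals, 992 and 890 from the deposited table, 1681 and 7454 with median centring, 927 and 861 without the 2 h sample, 4540 and 5905 without replicate 1 and 6268 and 5031 without replicate 2. Over the same probes 60 slopes rose and 74 fell, against 235 and 279 with no background correction, 278 and 212 with median centring, 164 and 184 with the replicate block, and 0 and 0 from processed signals, the deposited table, an offset of 16 or a trended robust variance, where 2760, 2744, 2795 and 3199 had an unadjusted p under 0.05. Without replicate 1 they were 17 and 30, and without replicate 2 they were 8 and 13. Dim signal limits Il1a, Il1b, Il1r2 and the variant 1 probe of Il1rap. The kept Il1rn probe is also dim, and the size of its rise differed with the processing. The causes of these differences were not tested.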
